A study of Rattus norvegicus with 3 samples.

Results

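The genes described here build the primary cilium or are mutated in polycystic and nephronophthisis-type kidney disease, and their transcripts were measured in the rat medullary thick ascending limb (mTAL). They were chosen by gene symbol alone: 16 symbols given by name (among them Pkd1, Pkd2, Arl3, Glis2 and Cep290) and every symbol of the Ift, Bbs, Nphp, Tctn and ciliary Ttc families. The rule found 40 of the 14217 genes that the array measured, on 59 probe sets, and the brightest probe set stood for each gene. Of the 16 symbols, 12 had a probe set of their own. Pkhd1, Glis3, Arl13b and Kif17 are not analysed here, and neither is Tctn2, whose probe set also names Atp6v0a2. All samples were 1 group: 3 mTAL preparations from male Sprague-Dawley rats 7 to 8 weeks old, each hybridised to 1 Affymetrix array. The rats had received heparin (250 u) and furosemide (1 mg) before death, and tubules were released with collagenase and hyaluronidase and collected from a Percoll gradient. No untreated animal, other segment or disease model was included, and no label says whether a preparation came from 1 rat or a pool. The spread between arrays may therefore not measure the spread between rats.

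Most epithelial cells of the tubule carry a single non-motile cilium that reaches into the lumen and serves as a sensor of flow and of secreted signals. Its shaft is assembled by intraflagellar transport (IFT), in which kinesin-2 carries IFT-B trains to the tip and a dynein with IFT-A brings them back. The BBSome, a coat of Bardet-Biedl proteins, moves membrane proteins out of the cilium, and the transition zone at its base decides what enters. Polycystin-1 and polycystin-2, the proteins of Pkd1 and Pkd2, form a receptor and channel complex in the ciliary membrane. Loss of either causes autosomal dominant polycystic kidney disease, and cysts also arise when IFT is lost in the mouse kidney.

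Transcription of many ciliary genes is driven by RFX factors, which bind a palindrome called the X-box, so the promoters of the 40 genes were searched for it. RefSeq promoters of the rat assembly GRCr8, from 250 bases before to 50 after the gene's start, matched 34 of the 40 genes by gene ID. The motif searched was GTTNCCNNGGNAAC, which has 10 fixed letters and reads the same on both strands. It stood without a mismatch in 3 of the 34 (8.82%), against 0.419% of the 11700 measured genes with a promoter. With up to 1 mismatch among the fixed letters it stood in 9 of 34 (26.5%), against 2.68% of the same 11700 genes. Other primary cilium and polycystic genes had it in 6 of 84 (7.14%), 1 of them (1.19%) without a mismatch. Motile cilium genes had it in 6 of 21 (28.6%), with 0 of 21 free of a mismatch. The promoters with a full match are shown because Ahi1, Arl6 and Mks1 fall on different sides of detection: Arl6 was detected, and Ahi1 and Mks1 were not. Capitals mark the match, which begins 83 bases before the start in Ahi1 (chr1:17581781-17582080, plus strand), 13 before it in Arl6 (chr11:54181108-54181407, plus strand) and 56 before it in Mks1 (chr10:73152971-73153270, plus strand).
Ahi1: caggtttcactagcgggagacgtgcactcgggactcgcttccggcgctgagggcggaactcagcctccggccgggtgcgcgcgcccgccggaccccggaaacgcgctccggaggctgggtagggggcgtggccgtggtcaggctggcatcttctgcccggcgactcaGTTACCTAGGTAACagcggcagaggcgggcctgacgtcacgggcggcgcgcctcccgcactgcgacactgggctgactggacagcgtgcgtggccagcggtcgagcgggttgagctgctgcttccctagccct
Arl6: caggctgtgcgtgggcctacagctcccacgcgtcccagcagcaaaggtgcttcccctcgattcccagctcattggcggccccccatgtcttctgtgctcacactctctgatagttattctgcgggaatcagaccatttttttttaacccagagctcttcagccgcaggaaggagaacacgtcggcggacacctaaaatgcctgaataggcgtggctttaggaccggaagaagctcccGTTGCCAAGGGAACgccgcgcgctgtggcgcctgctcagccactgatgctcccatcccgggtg
Mks1: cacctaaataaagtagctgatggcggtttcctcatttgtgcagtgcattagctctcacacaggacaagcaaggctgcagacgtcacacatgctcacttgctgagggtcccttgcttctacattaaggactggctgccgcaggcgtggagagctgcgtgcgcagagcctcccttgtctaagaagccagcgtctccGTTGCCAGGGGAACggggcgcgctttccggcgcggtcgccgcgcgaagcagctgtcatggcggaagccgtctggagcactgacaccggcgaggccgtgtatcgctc
The 6 promoters with 1 mismatch are given as the 14 bases of the match with 8 bases on either side, on the gene's strand, to show how the palindrome varies. Here capitals mark the fixed letters that match.
Ift172: cttggcggGTTgtCcaGGtAACcgtgggag
Ift140: tacgcacgGTcgCCcaGGgAACcctagctg
Ift22: tgttcccgGTcgCCgtGGaAACcgatcagc
Ift70b: gttggcccaTTgCCttGGaAACgaggatgc
Bbs7: gcgtcttgGTTggCctGGaAACcggctgta
Nphp4: tcgtgcccGTctCCtaGGtAACgcgccagc
Of these 9 genes with 0 or 1 mismatch, 4 were detected (Arl6, Bbs7, Ift140 and Ift172) and 5 were not (Ahi1, Mks1, Ift22, Ift70b and Nphp4). Of the 34 genes with a promoter 19 were detected, and of all measured genes 53.7%. A difference between these shares was not tested. A match is a description of letters and shows no binding.

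Signals are the authors' probe set intensities on a linear scale, given as mean ± SD (n = 3 arrays throughout). A gene was called detected when its log2 signal lay above a background cutoff on limma's one-sided test, with p-values adjusted by Benjamini and Hochberg over all 14217 genes at 0.05. For background, 72 measured genes that mark other tissues (pituitary, muscle and retina among them) were taken, and their 95th percentile on each array was its cutoff. It lay at a signal of 404, 338 and 384 on replicates 1, 2 and 3. Each gene was set against the cutoff and its own repeat values. Hybridisation strength varies between probe sets, and the cutoff comes from probe sets of other genes, so this strength can affect a call. The preparations are bulk tissue, in which fewer cells with a transcript and less of it per cell cannot be told apart.

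Of the 40 genes, 25 were detected (62.5%), where 53.7% of all genes were, so the share as a whole lay near the background. Within 1 log2 unit of the cutoff lay 18 of the 40 (45.0%), against 20.6% of all genes, a difference that was not tested. None of the 40 lay more than 2 log2 units below it, where 23.2% of all genes did, and 9 (22.5%) lay more than 2 above it, where 32.9% of all genes did. The mean log2 distance from the cutoff ran from -1.66 for Bbs12 to 3.89 for Glis2, with a median of 0.93 against 0.82 over all genes. On all 3 arrays 31 of the 40 were above the cutoff (55.9% of all genes were). Below it on all 3 were 5 of the 40 and 5154 of all 14217 genes. Above it on 1 or 2 arrays were 4 of the 40 and 1120 of the 14217. The count of detected genes among the 40 moved with the cutoff. It was 21 when Myh1 was put back into the list of other-tissue genes (48.8% of all genes), 38 with the cutoff at the 90th percentile (63.3%), 6 with it at the 99th (26.6%) and 40 with it at TrpnX, a control transcript (78.3%). Without replicates 1, 2 and 3 in turn it was 23, 23 and 21, where 53.1%, 50.9% and 50.7% of all genes were detected. It was 21 when dim genes were left out before the test, which called 99.9% of the rest, and 25 under quantile normalization (53.4%), a common 75th percentile (53.7%), a pseudocount of 16 (54.0%) and an eBayes trend (54.3%).

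**Figure D1:**
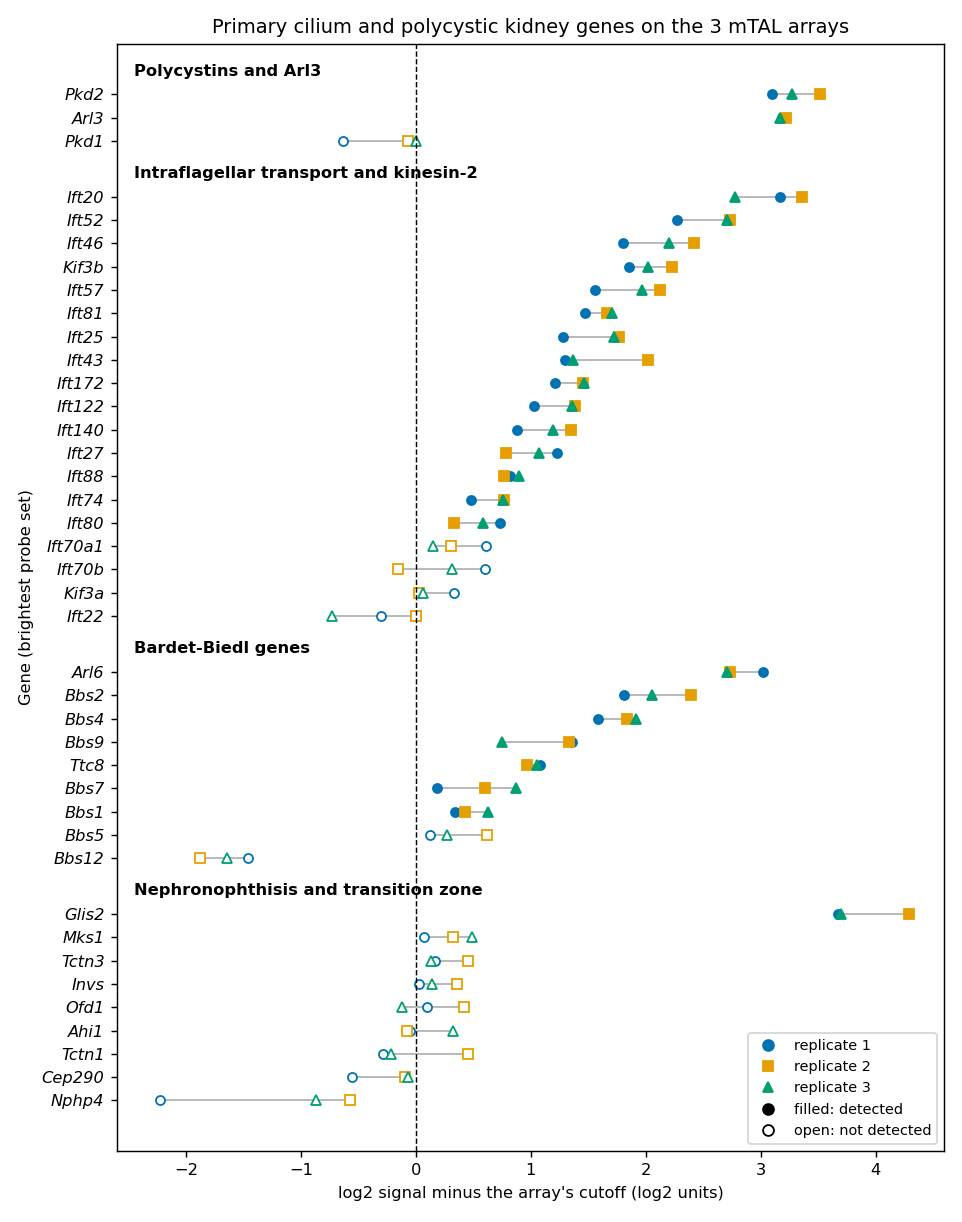
Log2 signal minus each array's cutoff (horizontal axis, log2 units) for the 40 genes, grouped by role, with 1 point per array, filled where the gene was detected. Glis2, Pkd2, Arl3, Ift20 and Arl6 stand more than 2.7 log2 units above the cutoff on every array, and 18 genes have a mean within 1 log2 unit of it.

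Of the polycystins, Pkd2 was detected and Pkd1 was not. Pkd2, which encodes the channel polycystin-2, had signals of 3473, 3882 and 3717 on replicates 1, 2 and 3 (probe set 1382021_at). All 3 arrays were far above the cutoff, at a mean log2 distance of 3.30 ± 0.21 (limma adjusted p = 0.000144). Pkd1, which encodes the receptor-like polycystin-1, had signals of 260, 323 and 384 on its only probe set, 1371029_at. It lay below the cutoff on every array, on replicate 3 by less than 1 unit of signal, and its mean distance was -0.23 ± 0.35 (adjusted p = 1.00). With the cutoff at the 90th percentile Pkd1 was detected too (distance 0.88, adjusted p = 0.0214), and likewise at TrpnX. Since the probe sets of Pkd1 and Pkd2 may hybridise with different strength, the values do not show how much of each transcript there was. Arl3, a small GTPase that releases lipid-modified proteins inside the cilium, had signals of 3683, 3153 and 3455 and was detected (distance 3.19 ± 0.03, adjusted p = 0.000108).

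Most genes of intraflagellar transport were detected, 15 of 19, with the background at 53.7% of all genes. With the cutoff at the 99th percentile the count was 2 of 19, where 26.6% of all genes were detected. All 3 measured IFT-A genes passed the test, and all 4 of the peripheral IFT-B genes, which link the train to kinesin. Of the 10 core IFT-B genes 7 passed, and of the 2 kinesin-2 motor subunits 1 did. No member of the group had a mean more than 0.35 log2 units below the cutoff.

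Among the IFT-A genes, Ift43 had signals of 993, 1372 and 993, with replicate 2 above the other 2 arrays (distance 1.56 ± 0.40, adjusted p = 0.00274). Ift122 had 827, 886 and 987 and Ift140 had 744, 863 and 878, at distances of 1.26 ± 0.20 and 1.14 ± 0.24. IFT140 mutations are known from human skeletal ciliopathy with kidney failure. On all arrays these 3 genes stood above the cutoff.

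Among the peripheral IFT-B genes, Ift20, whose protein also works at the Golgi in sorting ciliary cargo, had signals of 3627, 3484 and 2631 (distance 3.10 ± 0.30, adjusted p = 0.000235). Replicate 3 was the lowest of the 3 arrays and still far above its cutoff. Ift57 had signals of 1192, 1477 and 1504, Ift172 had 938, 925 and 1057, and Ift80 had 670, 427 and 578. Ift80, the gene of a Jeune-type thoracic dystrophy in humans, was the closest of the 4 to the cutoff, at 0.55 ± 0.20 (adjusted p = 0.0188), and was no longer called without replicate 1 or without replicate 3.

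Among the core IFT-B genes, Ift52 had signals of 1958, 2256 and 2516, Ift46 had 1410, 1815 and 1766, and Ift81 had 1119, 1075 and 1252. Their distances were 2.57 ± 0.26, 2.14 ± 0.31 and 1.61 ± 0.13. IFT81 and IFT74 together carry tubulin, and Ift74 was detected at 564, 577 and 651 (distance 0.67 ± 0.16, adjusted p = 0.00855), a call that was lost without replicate 3. Ift88, the gene disrupted in the mouse model of recessive polycystic disease called orpk, had signals of 712, 577 and 715, above the cutoff on every array (distance 0.83 ± 0.06, adjusted p = 0.00277). Ift25 and Ift27 encode partners that in mice are dispensable for building the cilium and needed for moving proteins out of it. Ift25 had signals of 980, 1155 and 1274 and Ift27 had 947, 583 and 809, and both were detected.

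The core IFT-B genes that were not detected were Ift22, Ift70a1 and Ift70b. Ift22 had signals of 327, 338 and 232 and was below the cutoff on every array. Ift70a1 had 617, 418 and 425 and Ift70b had 615, 304 and 477. The 2 Ift70 genes are near-identical copies, so a probe set of one may also bind transcripts of the other. The motor subunit Kif3b had signals of 1462, 1588 and 1555 and was detected (distance 2.03 ± 0.19, adjusted p = 0.000377). Its partner Kif3a, whose loss gives kidney cysts in mice, had 507, 344 and 402, above the cutoff on all 3 arrays but not called (distance 0.14 ± 0.17, adjusted p = 0.299).

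Bardet-Biedl genes were detected in 7 of 9 cases, with the background at 53.7% of all genes. The count was 5 without replicate 2 or without replicate 3, and 1 with the cutoff at the 99th percentile, where 26.6% of all genes were detected. Arl6, the GTPase that recruits the BBSome to membranes, had signals of 3284, 2257 and 2510 (distance 2.82 ± 0.17, adjusted p = 0.000165). All 7 measured subunits of the BBSome itself lay above the cutoff on every array, where 55.9% of all genes did. Of these 7 subunits, 6 passed the test. Bbs2 had signals of 1422, 1777 and 1599, Bbs4 had 1210, 1207 and 1453, and Bbs9 had 1035, 851 and 645. Ttc8, also known as BBS8, had 854, 661 and 796, with the log2 distance almost the same on each array (1.03 ± 0.06, adjusted p = 0.00140). Bbs1 (512, 455 and 594) and Bbs7 (460, 513 and 703) passed with adjusted p = 0.0226 and 0.0425. The Bbs1 call was lost on leaving out any 1 of the 3 arrays. That of Bbs7 was lost without replicate 2 or replicate 3, and stayed without replicate 1. Bbs5 (440, 518 and 464) missed the threshold (adjusted p = 0.0909). Bbs12, which belongs to a chaperonin-like complex that helps to assemble the BBSome, had signals of 147, 91.8 and 123 and was below the cutoff on every array (distance -1.66 ± 0.21).

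Of the 9 genes of nephronophthisis and of the transition zone, 7 lay within 1 log2 unit of the cutoff, where 20.6% of all genes did. Glis2 alone was detected, with the background at 53.7% of all genes. Glis2 encodes a zinc finger transcription factor whose loss causes nephronophthisis, and its signals were 5158, 6629 and 5002 (distance 3.89 ± 0.35, adjusted p = 0.000178). Its protein is a regulator and not a structural part of the cilium. Of the 6 transition zone genes 0 were detected by limma, and 0 had an unadjusted p under 0.05, although Mks1 (424, 424 and 538) and Tctn3 (454, 465 and 421) were above the cutoff on all 3 arrays. Ahi1 (390, 320 and 480), which encodes jouberin, and Tctn1 (332, 463 and 330) crossed it on 1 array each. Cep290 (275, 316 and 367), the gene of a protein that tethers the ciliary membrane to microtubules, was below it on all 3 arrays. So was Nphp4 (86.6, 227 and 210), whose replicate 1 signal was the lowest of its 3. Invs, which names the inversin compartment of the cilium, had 413, 433 and 424, above each cutoff by little, and Ofd1, a centriole protein gene, had 433, 453 and 353. The result depended on the call rule: 4 of the 9 were above the cutoff on all 3 arrays, and 8 of 9 were detected with the cutoff at the 90th percentile.

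Several of these calls depended on the probe set used. Of the 40 genes, 16 had more than 1 probe set, and among their 19 further probe sets 18 lay below the cutoff on all 3 arrays. The exception was Ift46, whose second probe set (522, 622 and 437) was also above it on every array. The second Glis2 probe set had signals of 219, 209 and 130, and the second Pkd2 probe set 243, 240 and 179. For Ift25 the further probe sets had 295, 301 and 361 on one and 2.61, 2.95 and 6.32 on the other. The gap between the brightest and the dimmest probe set of a gene ran from 0.04 log2 units in Ift22 to 8.27 in Ift25, with a median of 2.11. The further probe sets are the dimmer ones by choice, and neither their share below the cutoff nor this gap was computed over all genes. With the mean of a gene's probe sets in place of the brightest, 22 of the 40 genes were detected (48.8% of all genes), 19 of them among the 25. Ift25 then fell to -1.51 and Bbs1 to -0.021 relative to the cutoff, while Ift122, Ift81, Kif3b and Bbs7 stayed above it and lost their calls. Ift70a1, Bbs5 and Tctn3, with 1 probe set each, were then called, since the cutoff is also recomputed from probe set means. Detection was as frequent with 1 probe set (15 of 24) as with several (10 of 16).

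**Figure D2:**
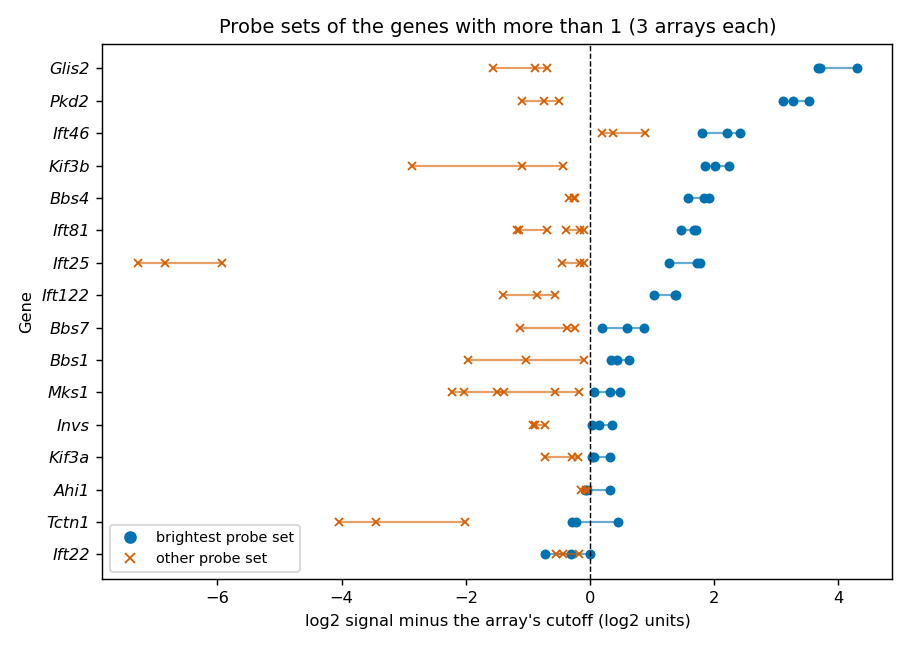
Log2 signal minus each array's cutoff (horizontal axis, log2 units) for every probe set of the 16 genes with more than 1, with 3 points per probe set, 1 for each array. In all 10 detected genes shown the brightest probe set lies right of the dashed line on every array, and of the 19 other probe sets only that of Ift46 does.

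The median deviation of the cilium genes was close to 0 on every array, while that of the proximal tubule markers was not. The summed signal of the 40 genes was 44953, 45883 and 45270 on replicates 1, 2 and 3. The median gene of every array was then set to 0. The 40 genes deviated from the mean of the other arrays by a median of 0.01, -0.02 and 0.04 log2 units. The highest array was replicate 1 for 16 of them, replicate 2 for 11 and replicate 3 for 13. Replicates 1, 2 and 3 were highest for 46.0%, 28.2% and 25.8% of all genes, and a difference was not tested. The 14 measured markers of the thick ascending limb (TAL), all detected, summed to 271866, 264606 and 248143, and deviated by 0.20, -0.05 and -0.12. The 24 proximal tubule markers, of which 2 were detected, summed to 7402, 26815 and 85280, and deviated by -3.22, 0.28 and 3.07. Thin limb markers (4 of 5 detected) summed to 27326, 72996 and 41454, endothelial markers (9 of 12) to 16832, 30379 and 26349, and principal cell markers (6 of 13) to 17152, 22709 and 33380. Of distal convoluted and connecting tubule markers limma detected 0 of 7, with 0 at an unadjusted p under 0.05, and of intercalated cell markers 0 of 7, with 2 at an unadjusted p under 0.05. No signal in the table was 0. The cilium is carried by most of these cell types, and their part in the signals of the 40 genes was not tested.

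**Figure D3:**
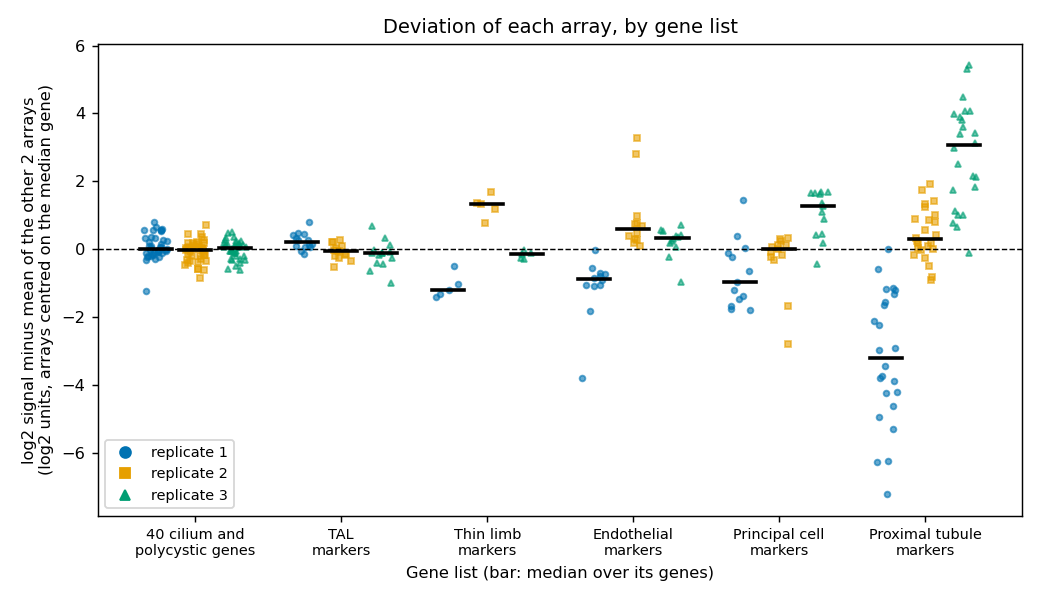
Deviation of each array from the mean of the other 2 (vertical axis, log2 units, arrays centred on the median gene) for the 40 genes and for markers of 5 cell types, with 1 point per gene and a bar at the median. The medians of the 40 genes lie between -0.02 and 0.04, and those of the proximal tubule markers between -3.22 and 3.07.

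Of the 40 genes, 34 had a mean above the cutoff, as did 8472 of all genes. The median SD between replicates was 0.19 log2 units for the 34 and 0.16 for the 8472. An SD under 0.5 was found in 33 of the 34, near the 94.1% of the 8472. The widest range among the 34 was that of Ift70b, at 1.02 log2 units or 2.02-fold between replicate 2 and replicate 1. Ift27 followed with 1.62-fold between the same arrays, then Bbs9 with 1.60-fold (highest on replicate 1, lowest on replicate 3), Ift80 with 1.57-fold (replicates 1 and 2) and Bbs7 with 1.53-fold (replicates 3 and 1). Of the 6 genes with a mean at or below the cutoff, Nphp4 ranged 2.63-fold (highest on replicate 2, lowest on replicate 1) and Bbs12 1.60-fold (highest on replicate 1, lowest on replicate 2). With 1 preparation per array such differences have no replicate test.

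Of 102 other measured genes of the primary cilium and of polycystic disease, drawn from 6 lists, 64 were detected (62.7%), near the 53.7% of all genes. This share of all genes is also the background for the count of each list below. Polycystic disease partners were detected in 20 of 22 cases. Highest above the cutoff were Sec61b (7641 ± 253), a subunit of the protein translocation channel, Prkcsh (5222 ± 726), whose glucosidase subunit is needed to make polycystin-1 and is mutated in polycystic liver disease, and Vhl (5061 ± 230), the von Hippel-Lindau gene. The lowest were Pkd2l2 (73.1 ± 27.6) and Prkd1 (58.6 ± 63.2). These partners include many genes that every cell uses in its secretory pathway.

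Ciliary GTPases and partners of the BBSome were detected in 15 of 18 cases, led by the membrane traffic GTPases Rab10 (8137 ± 510), Rab11a (8054 ± 906) and Rab28 (7214 ± 107), while Tbc1d7 (516 ± 130) and Tbc1d32 (303 ± 56.0) were lowest. Of 14 IFT partners 10 were detected, led by the dynein light chain Dynlrb1 (10272 ± 618), Kifap3 (3124 ± 235), the third subunit of kinesin-2, and Dync2li1 (1709 ± 161), a subunit of the retrograde IFT dynein. Kif7 (86.8 ± 18.8), a kinesin of hedgehog signalling, and Tub (4.13 ± 3.26) were lowest. Dynlrb1 and the Rab proteins also serve outside the cilium.

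A wider list of transition zone and centriole genes, without the 40, had 16 of 26 detected (61.5%, against 53.7% of all genes). The highest were Pcm1 (3391 ± 181), the scaffold of centriolar satellites, B9d1 (2954 ± 59.1), a partner of Mks1, and Tmem67 (1181 ± 97.8), the gene of meckelin. The lowest were B9d2 (23.8 ± 32.4) and Sdccag8 (10.00 ± 0.77). Whether this share differs from the 1 of 9 given above was not tested.

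Hedgehog signalling passes through the cilium in many tissues, and limma detected 0 of its 14 measured genes, with 0 at an unadjusted p under 0.05 and 0 above the cutoff on all 3 arrays. Smo (357, 683 and 531), the pathway's signal transducer, was above the cutoff on replicates 2 and 3. Disp1 (410, 379 and 278) was above it on replicates 1 and 2, and Dhh (9.56, 371 and 162) on replicate 2. Smo, Disp1 and Dhh were named after their values were seen. The lowest were the transcription factor Gli2 (43.2 ± 42.1) and the ligand Shh (8.05 ± 2.22). Of 25 motile cilium genes 2 were detected, the radial spoke genes Rsph9 (802 ± 171) and Rsph1 (556 ± 76.8), and the count was 1 without replicate 2 or without replicate 3. The lowest were Ak7 (7.21 ± 2.19) and Mns1 (5.65 ± 2.54).

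Of 8 RFX factors and other regulators of ciliary genes 3 were detected, Rfx7 (1954 ± 93.5), Rfx5 (1659 ± 138) and Rfx1 (1152 ± 130). Rfx5 is known as a regulator of class II antigen genes. Rfx3 and Rfx2, the members best known from cilia and named here for that role, had signals of 475, 581 and 475 for Rfx3, above the cutoff on all 3 arrays but not called (adjusted p = 0.0598), and of 155, 144 and 139 for Rfx2, below it on all 3. Foxj1 (94.0 ± 68.3), the master regulator of motile cilia, and Gmnc (44.1 ± 19.5), which acts before it, were lowest.

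**Figure D4:**
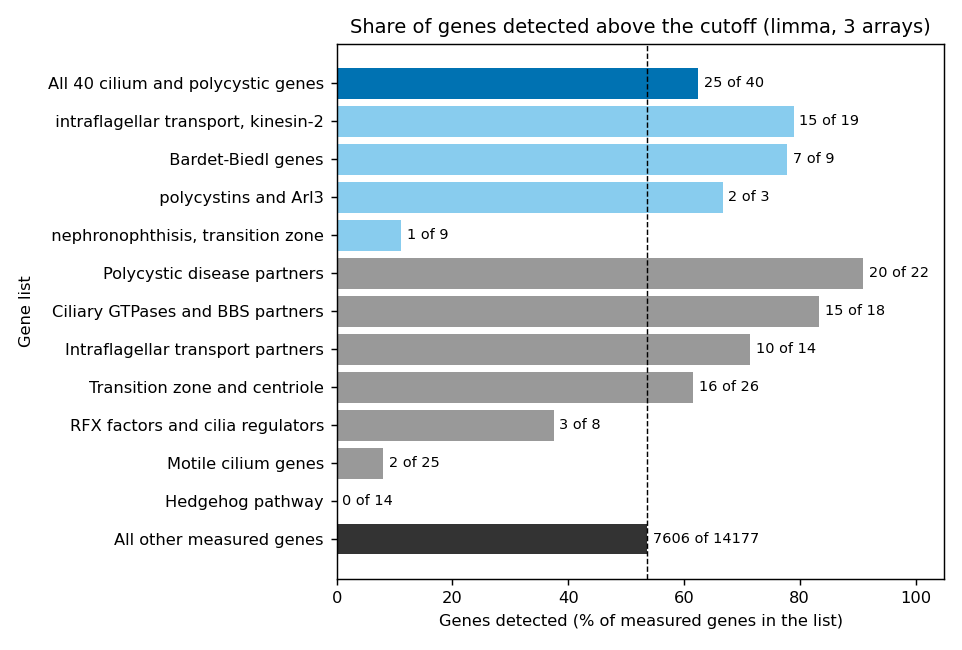
Share of measured genes detected above the cutoff (horizontal axis, %) for the 40 genes and their role groups (blue), related gene lists (grey) and all other genes (black), with the counts beside the bars and a dashed line at 53.7%. Intraflagellar transport (15 of 19), Bardet-Biedl genes (7 of 9) and the wider transition zone and centriole list (16 of 26) lie right of the line. Nephronophthisis and transition zone genes among the 40 (1 of 9), motile cilium genes (2 of 25) and hedgehog genes (0 of 14) lie left of it.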

How the data were processed

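Total RNA from 3 mTAL preparations was labelled with biotin and run on Affymetrix arrays (source: the labels' protocols). The authors deposited a linear-scale intensity for every probe set on each array (0.217 to 94710). How they summarised, corrected and normalized it was not given in the sources used here. A mean signal without the lowest and highest 2% was 1000.0 on every array, so values were used without further scaling, as log2 with no pseudocount. No total count exists for arrays, and their number limits the precision.

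Of 31099 probe sets, 57 were controls, 20826 carried 1 gene, 436 several and 9780 none in the platform annotation. Only those with 1 gene were used, and 20758 of them were found by gene ID in the RefSeq table of GRCr8. The brightest probe set by mean log2 signal was kept for each gene. Distance from the cutoff, in log2 units per array, was tested with limma 3.58.1 (lmFit, eBayes, one-sided above 0, R 4.3.3) over all 14217 genes, and the procedure was tested on simulated data. Myh1 was kept out of the 78 other-tissue entries (72 measured), because its signal puts its annotation in question. All 40 chosen genes are named. Of each related list the 3 detected genes furthest above the cutoff and the 2 lowest genes are named, and, of the 34 chosen genes with a mean above the cutoff, the 5 with the widest range over arrays are given. Genes named outside this rule are said to be. The members, lists and tests were chosen with earlier results of these data known. Replicate numbers come from the sample titles, and no 2 arrays were copies: they shared at most 1 identical value. The alternatives tried were a common 75th percentile, quantile normalization, cutoffs at the 90th and 99th percentile, with Myh1 or at the TrpnX control, a pseudocount of 16, probe set means, an eBayes trend, a filter on dim genes, a call on all 3 arrays, and leaving out each replicate.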

Additional observations from a re-analysis of the deposited data

How the results depend on the processing

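Under quantile normalization, a common 75th percentile, a pseudocount of 16 and an eBayes trend, the 25 detected genes remained the same 25. With Myh1 in the cutoff list 21 were detected, all among the 25, and leaving out 1 replicate gave 21 to 23. With dim genes left out 21 were also detected, all among the 25. That filter uses the same signals as the test and 99.9% of the genes kept were called, so it is no check on the calls. The cutoff had the widest effect on the 40 genes: 38 were detected at the 90th percentile, 40 at TrpnX and 6 at the 99th percentile, namely Pkd2, Arl3, Ift52, Ift20, Arl6 and Glis2, which were detected under every alternative run. At the 99th percentile, where 26.6% of all genes were detected, the counts were 2 for intraflagellar transport, 1 for Bardet-Biedl, 26 for other primary cilium and polycystic genes and 0 for motile cilium genes. Nephronophthisis and transition zone genes numbered 8 at the 90th percentile (63.3% of all genes) and 9 at TrpnX (78.3%). They numbered 2 with probe set means (48.8%) and 4 when called above the cutoff on all 3 arrays (55.9%). Motile cilium genes numbered 6 at the 90th percentile, 12 at TrpnX and 1 with Myh1, with dim genes left out, or without replicate 2 or 3 (1 to 2 over the replicates). These moves follow from where the cutoff was placed, from fewer genes or samples, or from the probe sets used.

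The sign of the mean log2 distance turned for the following genes, counting those detected in the main setting or under the alternative. At the 99th percentile they were Ift122 -0.59, Ift140 -0.71, Ift43 -0.29, Ift25 -0.26, Ift27 -0.82, Ift74 -1.18, Ift81 -0.24, Ift88 -1.02, Ift80 -1.30, Ift172 -0.47, Bbs1 -1.38, Bbs4 -0.071, Bbs7 -1.30, Bbs9 -0.71 and Ttc8 -0.82. At the 90th percentile they were Pkd1 0.88, Ift22 0.77, Cep290 0.87 and Tctn1 1.10. At TrpnX they were Pkd1 2.65, Ift22 2.54, Bbs12 1.23, Nphp4 1.67, Cep290 2.65 and Tctn1 2.87. With probe set means they were Ift25 -1.51 and Bbs1 -0.021.

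No paired analysis was possible because the samples form 1 group. With 3 arrays, no group was large enough for a search for outlying samples. Lack of detection is not lack of expression. The cutoff rests on few genes: it lies among the brightest of 72, and its own error is not part of any p-value.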
